A study of Mus musculus with 31 samples.

Results

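Fpr1, Fpr2 and Anxa1 were followed across 2 RNA-seq experiments on macrophages grown from mouse bone marrow. The 3 genes were taken by name from gene tables of 35275 and 54532 identifiers, and all 3 were present and passed the filter on low counts in both experiments. They were chosen by the measured counts of Fpr1, already known to be lower with both BRD9 compounds in these data, so the differences between cells with and without a BRD9 compound are given as a description, without a test. The tests of dexamethasone and of stimulation on Fpr1 draw on the same libraries, in contrasts that the choice did not use. With a BRD9 compound present, both arms of the dexamethasone test hold levels that the choice used. All p-values of Fpr1 are to be read with that limit. The cells came from male C57BL/6J mice 6 to 12 weeks old and were grown in L-929 conditioned medium. Experiment 1 has 3 libraries in each of 7 groups, in which cells had dexamethasone, iBRD9 and LPS, dexamethasone, dBRD9 and LPS, iBRD9 and LPS, dBRD9 and LPS, dexamethasone and LPS, LPS alone, or vehicle. Experiment 2 has 2 libraries in each of 5 groups, in which IFNγ was combined with LPS and cells had dexamethasone and dBRD9, dBRD9, dexamethasone, neither, or, without any stimulus, vehicle. Dexamethasone, a synthetic glucocorticoid, was used at 1 µM. The BRD9 bromodomain inhibitor iBRD9 was used at 3 or 10 µM, and the labels do not give which library had which dose. The BRD9 degrader dBRD9 was used at 250 nM. These agents were left on overnight, and LPS, a bacterial cell wall product, was given at 100 ng/ml for 3 h. No dose or time of IFNγ is stated in the labels. The labels do not say whether replicates came from separate animals or cultures, so p-values measure only the spread between these libraries.

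Formyl peptide receptors are G protein coupled receptors on phagocytes. Fpr1 binds N-formylated peptides released by bacteria and damaged mitochondria and drives chemotaxis and oxidative burst. Fpr2 binds a wider set of ligands, among them serum amyloid A, cathelicidin and annexin A1. Annexin A1, encoded by Anxa1, is a calcium-dependent phospholipid-binding protein that is released from leukocytes and limits inflammation through Fpr2. It is widely described as a protein that glucocorticoids induce or mobilise. BRD9 is a bromodomain protein of a BAF-type chromatin remodelling complex.

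Fpr1 lies on chromosome 17 at 17876471 to 17883940 on the minus strand and Fpr2 at 17887824 to 17893952 on the plus strand (GRCm38, GENCODE vM21). The genes stand head to head, with their starts 3884 bases apart, and each has 2 exons in the union of its transcripts. Anxa1 lies on chromosome 19 at 20373428 to 20390944 on the minus strand and has 15 exons. The 250 bases before each gene's RefSeq start, the promoters of the genes whose levels are described, are shown from RefSeq (GRCm38.p6), each 5′ to 3′ on the gene's own strand, with the only motif match in capitals. They cover chr17:17883940-17884189 on the minus strand for Fpr1, chr17:17887574-17887823 on the plus strand for Fpr2 and chr19:20390672-20390921 on the minus strand for Anxa1. RefSeq's start of Anxa1 differs from that of GENCODE, so the Anxa1 window lies inside the gene as GENCODE places it.
Fpr1: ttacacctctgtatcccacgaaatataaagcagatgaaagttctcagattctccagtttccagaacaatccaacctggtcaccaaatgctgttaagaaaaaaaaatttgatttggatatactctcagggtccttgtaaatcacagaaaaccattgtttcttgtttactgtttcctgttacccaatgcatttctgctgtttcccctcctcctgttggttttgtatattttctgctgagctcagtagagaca
Fpr2: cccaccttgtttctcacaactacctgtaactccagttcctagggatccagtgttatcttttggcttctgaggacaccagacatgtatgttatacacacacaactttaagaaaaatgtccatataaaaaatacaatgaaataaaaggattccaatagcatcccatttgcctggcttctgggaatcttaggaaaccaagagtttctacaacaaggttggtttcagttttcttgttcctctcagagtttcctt
Anxa1: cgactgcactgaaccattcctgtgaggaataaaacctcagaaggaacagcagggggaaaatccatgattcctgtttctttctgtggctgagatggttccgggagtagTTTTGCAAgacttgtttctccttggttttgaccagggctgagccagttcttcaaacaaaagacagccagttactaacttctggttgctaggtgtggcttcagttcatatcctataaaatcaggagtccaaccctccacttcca
The glucocorticoid response element, the AP-1 site TGANTCA, the PU.1 site GAGGAAGT and the C/EBP site TTGCNNAA were searched on both strands. The match in capitals, TTTTGCAA in the Anxa1 promoter, is a C/EBP site on the opposite strand, 143 to 136 bases before the start. Of 32851 promoters of the same length, 0.387% held the glucocorticoid response element, 6.75% the AP-1 site, 2.44% the PU.1 site and 9.56% the C/EBP site. No other match was found in the 3 windows, which says only that these letters are not there.

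Sequencing depth was 19.3 M to 29.9 M counts for the first experiment's libraries and 14.5 M to 17.9 M for the second's. Dexamethasone acted in the cells labelled with it: Tsc22d3, a direct target of the glucocorticoid receptor, averaged 165 CPM (counts per M counts, scaled by TMM factors) with dexamethasone and LPS and 2.03 CPM with LPS alone. Macrophage markers were present in every group, led by Lyz2, with a sum over 10 genes of 13251 to 28461 CPM in experiment 1. Replicate 1 of the dexamethasone and LPS group and replicate 1 of the dexamethasone, dBRD9 and LPS group stood apart, with the deviation of a gene from its group mean falling with exon length (Spearman's rho of -0.507 and -0.322 across 12607 genes). The fold changes of the 3 genes that rest on those groups are therefore also given without both libraries. For 28 other genes named in dexamethasone and LPS against LPS, leaving both out moved the log2 fold change by at most 0.24 and changed the call of 3, Spaca6, Cybb and Gnai2. The Brd9 transcript is not a check of either compound, since one blocks and the other degrades the protein.

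Both receptor genes were close to silent in unstimulated cells of experiment 1 and rose with LPS. Fpr1 was at 21.9, 20.1 and 17.6 CPM in LPS cells and at 0.218, 0 and 0.187 CPM in vehicle cells, where the 3 libraries together held 11 counts. Fpr2 was at 69.5, 65.1 and 63.6 CPM in LPS cells and at 0.364, 0.0582 and 0.15 CPM in vehicle cells. Every LPS library lay far above every vehicle library for both genes. The log2 fold change was 7.26 (SE 0.29, adjusted p = 2e-16) for Fpr1 and 8.47 (SE 0.2, adjusted p = 1.2e-20) for Fpr2 by edgeR's quasi-likelihood test with Benjamini-Hochberg adjustment over 12662 genes. The choice of Fpr1 used its level in these same LPS libraries, which limits its p-value. With so few vehicle counts the size of the change hung on single libraries: Fpr1 was at 6.58 without vehicle replicate 2 and Fpr2 at 9.32 without vehicle replicate 1, and leaving out 1 library at a time gave 6.58 to 7.83 for Fpr1 and 7.97 to 9.32 for Fpr2. Genes called higher in this comparison, at an adjusted p under 0.05, made up 36.1% of those tested, and 39% had LPS libraries all above the vehicle libraries, with 39.3% called lower and 42.4% with LPS libraries all below.

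Anxa1 was abundant before any stimulus. It was at 3038, 3057 and 3030 CPM in LPS cells and at 2162, 2244 and 2278 CPM in vehicle cells. The LPS libraries were all higher, and the log2 fold change was 0.45 (SE 0.046, adjusted p = 8.4e-09, edgeR). This rise depended on scaling: with library totals in place of TMM factors it was -0.06 (adjusted p = 0.19), while the median of all genes moved to -0.562, against -0.0484 with TMM. Relative to that median Anxa1 was higher by 0.50 under both scalings, which had to be so, since a scaling moves all genes of a library alike. That value therefore cannot decide between the scalings.

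**Figure D1:**
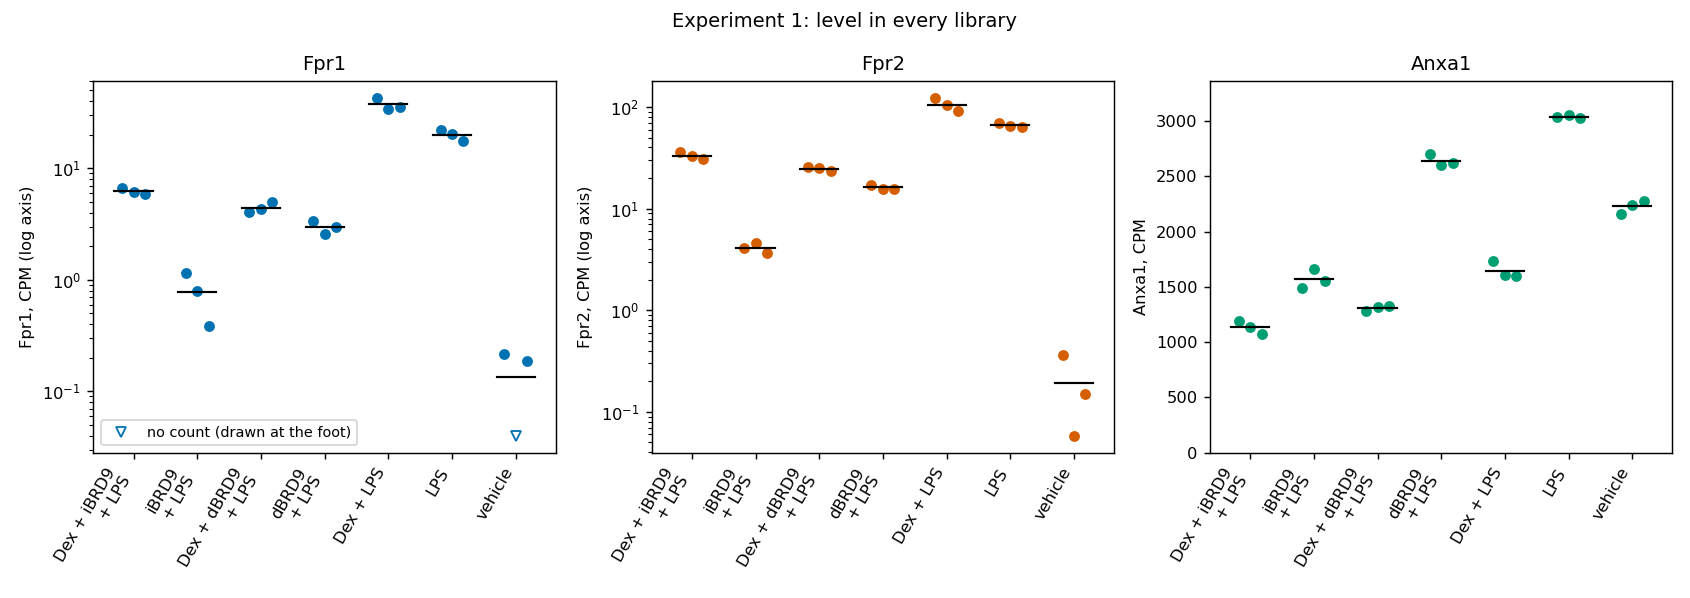
Level of Fpr1, Fpr2 (log axes) and Anxa1 (linear axis from 0) in CPM in each of the 21 libraries of experiment 1; points are libraries, horizontal lines are group means (n = 3), and the open triangle is a library with no Fpr1 count. Fpr1 and Fpr2 were highest with dexamethasone and LPS and lowest in vehicle cells, and Anxa1 was highest with LPS alone and lowest with dexamethasone, iBRD9 and LPS.

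With a BRD9 compound in the medium, LPS cells held little Fpr1. The level was 1.15, 0.787 and 0.385 CPM with iBRD9 and LPS and 3.35, 2.56 and 2.95 CPM with dBRD9 and LPS, against 21.9, 20.1 and 17.6 CPM with LPS alone. No library with either compound came near the LPS libraries. These levels were 3.9% and 14.9% of the LPS mean, with log2 fold changes of -4.62 (SE 0.21) with iBRD9 and -2.75 (SE 0.18) with dBRD9. Of all genes, 31.4% were called higher and 30.5% lower with iBRD9 and 6.64% higher and 9.97% lower with dBRD9, while 35.4% and 20.1% had compound libraries all below the LPS libraries and 36.5% and 17.8% all above. The rule that picked Fpr1 used these contrasts, so nothing is read from them here.

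Fpr2 showed the same pattern at a higher level. It was at 4.07, 4.6 and 3.68 CPM with iBRD9 and LPS and at 17.2, 15.7 and 15.7 CPM with dBRD9 and LPS, against 69.5, 65.1 and 63.6 CPM with LPS alone. Groups did not overlap, and the log2 fold changes were -4.00 (SE 0.13) with iBRD9 and -2.03 (SE 0.11) with dBRD9. In cells that also had dexamethasone, Fpr2 was at 36.2, 32.9 and 30.7 CPM with iBRD9 and at 26, 24.9 and 23.6 CPM with dBRD9, against 123, 104 and 90.6 CPM without a compound. These are log2 fold changes of -1.67 (SE 0.1) and -2.09 (SE 0.1). Fpr1 in the same cells was at 6.66, 6.18 and 5.85 CPM with iBRD9 and at 4.02, 4.27 and 5 CPM with dBRD9, against 42.7, 33.9 and 35.4 CPM without a compound. The log2 fold changes of Fpr1 were -2.58 (SE 0.16) and -3.08 (SE 0.16). Without the 2 libraries that stood apart they were -2.48 and -2.91 for Fpr1, and -1.55 and -2.0 for Fpr2. With dexamethasone present, 16.7% of genes were called higher and 18% lower with iBRD9, and 6.51% higher and 9.28% lower with dBRD9. Libraries with the compound lay all above or all below the others for 19.9% and 20% of genes with iBRD9 and for 11.6% and 12.8% with dBRD9.

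Anxa1 was lower as well, by less than the receptor genes. It was at 1489, 1661 and 1555 CPM with iBRD9 and LPS and at 2704, 2599 and 2620 CPM with dBRD9 and LPS, against 3038, 3057 and 3030 CPM with LPS alone. Both groups lay wholly below the LPS libraries, the iBRD9 libraries further below. The log2 fold changes were -0.96 (SE 0.047) and -0.20 (SE 0.046). With dexamethasone added they were -0.54 (SE 0.046) with iBRD9 and -0.33 (SE 0.046) with dBRD9, or -0.50 and -0.28 without the 2 libraries that stood apart. The dose of iBRD9 in each library is unknown and the compounds were used at different doses, so they are not compared with each other. In bulk RNA, fewer cells of one kind and less RNA per cell cannot be told apart.

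Dexamethasone moved the receptor genes and Anxa1 in opposite directions in LPS cells. Fpr1 was at 42.7, 33.9 and 35.4 CPM with dexamethasone and LPS and at 21.9, 20.1 and 17.6 CPM with LPS alone. Fpr2 was at 123, 104 and 90.6 CPM with dexamethasone and LPS and at 69.5, 65.1 and 63.6 CPM with LPS alone. Anxa1, the gene of the ligand, was at 1732, 1610 and 1600 CPM with dexamethasone and LPS and at 3038, 3057 and 3030 CPM with LPS alone. The dexamethasone libraries were all higher for both receptors and all lower for Anxa1. Log2 fold changes were 0.91 (SE 0.14, adjusted p = 5.2e-06) for Fpr1, 0.68 (SE 0.096, adjusted p = 2.5e-06) for Fpr2 and -0.88 (SE 0.046, adjusted p = 1.9e-13) for Anxa1 by edgeR. Of all genes, 27.9% were called higher and 27.5% lower, and the groups did not overlap for 27.8% and 27.9%. Without the 2 libraries that stood apart, edgeR gave 0.80, 0.56 and -0.92, with adjusted p-values of 1.7e-07, 3.9e-09 and 7.5e-21.

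In cells with iBRD9, the receptor genes were again higher and Anxa1 lower with dexamethasone. For Fpr2 and Anxa1 the size of the difference was not the same as without iBRD9. Fpr2 was at 36.2, 32.9 and 30.7 CPM with dexamethasone, iBRD9 and LPS and at 4.07, 4.6 and 3.68 CPM with iBRD9 and LPS. All dexamethasone libraries were higher, with a change of 3.01 log2 units (SE 0.13, adjusted p = 6.9e-15, edgeR), a fold of 8.07. Fpr1 was higher in all 3 libraries too, at 6.66, 6.18 and 5.85 CPM against 1.15, 0.787 and 0.385 CPM in iBRD9 cells without dexamethasone, with a change of 2.95 log2 units (SE 0.25, adjusted p = 1.1e-09, edgeR). Both arms hold levels that the choice of Fpr1 used, which limits this p-value. Anxa1 was lower in all 3 libraries, at 1187, 1140 and 1078 CPM with dexamethasone, iBRD9 and LPS and 1489, 1661 and 1555 CPM with iBRD9 and LPS. Its log2 fold change was -0.47 (SE 0.046, adjusted p = 1.4e-08, edgeR). Of all genes, 25.7% were called higher and 24.1% lower, and the groups did not overlap for 31.6% and 29.7%. The dose of iBRD9 in each library is unknown and may differ between these groups. A difference in dose and an effect of dexamethasone cannot be told apart wherever iBRD9 groups with and without dexamethasone are compared.

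The test of the difference between the effect of dexamethasone with iBRD9 and without it gave 2.33 on the log2 scale for Fpr2 (SE 0.16, adjusted p = 2.1e-10) and 0.42 for Anxa1 (SE 0.065, adjusted p = 2.7e-05) by edgeR. The same difference was 2.04 (SE 0.3) for Fpr1, given without a p-value because it contains the contrasts that picked the gene. Positive differences were called for 17.3% of genes and negative ones for 16%. Without the 2 libraries that stood apart the difference was 2.14 for Fpr1, 2.45 for Fpr2 and 0.45 for Anxa1. In levels, Fpr2 with iBRD9 was 31.4% of its value without the compound when dexamethasone was present and 6.23% when it was absent. The limit of the unknown iBRD9 dose holds for all these differences.

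In cells with dBRD9, dexamethasone again raised both receptor genes and lowered Anxa1. Fpr1 was at 4.02, 4.27 and 5 CPM with dexamethasone, dBRD9 and LPS and at 3.35, 2.56 and 2.95 CPM with dBRD9 and LPS. Fpr2 was at 26, 24.9 and 23.6 CPM with dexamethasone, dBRD9 and LPS and at 17.2, 15.7 and 15.7 CPM with dBRD9 and LPS. Anxa1 was at 1278, 1317 and 1331 CPM with dexamethasone, dBRD9 and LPS and at 2704, 2599 and 2620 CPM with dBRD9 and LPS. The groups did not overlap for any of the 3 genes. The log2 fold changes were 0.58 for Fpr1 (SE 0.21, adjusted p = 0.023), 0.62 for Fpr2 (SE 0.11, adjusted p = 6.7e-05) and -1.01 for Anxa1 (SE 0.047, adjusted p = 1.9e-14) by edgeR. The call of Fpr1 was lost with limma voom (adjusted p = 0.058) and on leaving out dBRD9 and LPS replicate 2, dBRD9 and LPS replicate 3, or dexamethasone, dBRD9 and LPS replicate 3 (adjusted p of 0.099, 0.063 and 0.085, edgeR). For Fpr1 both arms again hold levels that its choice used, which limits its p-values. Of all genes, 29.1% were called higher and 26.7% lower, and the groups did not overlap for 32.7% and 29.7%. The difference between the effect of dexamethasone with and without dBRD9 was -0.07 for Fpr2 (95% interval -0.38 to 0.25, adjusted p = 0.88) and -0.13 for Anxa1 (95% interval -0.27 to 0.01, adjusted p = 0.36) by edgeR, where 1.82% of genes had a positive and 1.57% a negative difference. Without the 2 libraries that stood apart, the effect of dexamethasone with dBRD9 was 0.64 for Fpr1, 0.58 for Fpr2 and -1.0 for Anxa1, and the difference was 0.02 for Fpr2 and -0.08 for Anxa1.

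In experiment 2 stimulation raised both receptor genes, and Anxa1 did not pass the test. Fpr1 was at 8.44 and 7.68 CPM with IFNγ and LPS and at 1.46 and 1.8 CPM in vehicle cells. Fpr2 was at 61 and 60.4 CPM with IFNγ and LPS and at 1.11 and 1.5 CPM in vehicle cells. Both stimulated libraries were above both vehicle libraries, and the log2 fold changes were 2.30 for Fpr1 (SE 0.26, adjusted p = 1e-06) and 5.52 for Fpr2 (SE 0.2, adjusted p = 6.2e-13) by edgeR over 13313 genes, of which 32.8% were called higher and 35.6% lower, with no overlap for 39.2% and 44.5%. Anxa1 lay between 1000 and 1199 CPM in all 10 libraries, and its log2 fold change with IFNγ and LPS was 0.01 (95% interval -0.28 to 0.31, adjusted p = 0.94, edgeR). With library totals alone that value was -0.64 and was called lower, and the median of all genes was -0.758, against -0.11 with TMM. Relative to the median Anxa1 was at 0.12 under both scalings, which is again fixed by how scaling works and cannot decide between them. Length trends were also present in experiment 2, with a Spearman's rho of -0.45 and 0.45 over 13300 genes in the vehicle libraries and 0.358 and -0.358 in those with dexamethasone, IFNγ and LPS. With 2 libraries in a group the deviations mirror each other, so which library stands apart cannot be told.

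In cells that also had IFNγ, neither receptor gene was higher with dexamethasone. Fpr1 was at 4.29 and 4.57 CPM with dexamethasone, IFNγ and LPS and at 8.44 and 7.68 CPM with IFNγ and LPS. Both dexamethasone libraries were lower, with a change of -0.86 log2 units (SE 0.24, adjusted p = 0.018, edgeR), in a comparison where 10.7% of genes were called higher and 9.21% lower and the groups did not overlap for 31.9% and 28%. That call was lost on leaving out any 1 of the 4 libraries compared, with adjusted p-values of 0.067 to 0.13. Fpr2 was at 46 and 58.9 CPM with dexamethasone, IFNγ and LPS and at 61 and 60.4 CPM with IFNγ and LPS, a log2 fold change of -0.21 (95% interval -0.58 to 0.15, adjusted p = 0.34, edgeR). Anxa1 was at 1000 and 1139 CPM with dexamethasone, IFNγ and LPS and at 1131 and 1108 CPM with IFNγ and LPS, a log2 fold change of -0.07 (95% interval -0.36 to 0.23, adjusted p = 0.75, edgeR). Tsc22d3 was at 282 CPM with dexamethasone and 2.67 CPM without it in these groups, with a change of 6.72 log2 units (SE 0.15, adjusted p = 5.2e-14, edgeR). The difference between the experiments was not tested, since they were fitted separately and differ in more than IFNγ.

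With dBRD9 in experiment 2, Fpr1 was at 1.32 and 1.91 CPM, against 8.44 and 7.68 CPM with IFNγ and LPS, a log2 fold change of -2.32 (SE 0.28). Its dBRD9 libraries lay at the level of the vehicle libraries. Fpr2 was at 24.4 and 19.4 CPM with dBRD9, against 61 and 60.4 CPM without it, a log2 fold change of -1.47 (SE 0.15), and stayed well above vehicle cells. Of all genes, 0.819% were called higher and 1.01% lower, while 21.3% had dBRD9 libraries above the others and 21.9% below. Cells with dexamethasone as well had 1.65 and 1.07 CPM of Fpr1 and 19.2 and 18.5 CPM of Fpr2 with dBRD9, against 4.29 and 4.57 CPM of Fpr1 and 46 and 58.9 CPM of Fpr2 without it. The log2 fold changes were -1.70 (SE 0.3) and -1.47 (SE 0.15), where 0.233% of genes were called higher and 1.16% lower and the groups did not overlap for 25.5% and 23.6%. Anxa1 with dBRD9 differed from its level without it by 0.02 (SE 0.11) in cells without dexamethasone and 0.01 (SE 0.11) in cells with it. Against dBRD9 alone, dexamethasone gave -0.25 for Fpr1, -0.21 for Fpr2 and -0.08 for Anxa1, with adjusted p-values of 0.63, 0.33 and 0.66 by edgeR, where 14% of genes were called higher and 14.4% lower and the groups did not overlap for 36.9% and 30%. The difference between the effects of dexamethasone with and without dBRD9 was -0.00 for Fpr2 and -0.01 for Anxa1 (adjusted p = 1 and 0.99, edgeR), and it was called for 0% of genes upward and 0.00751% downward.

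**Figure D2:**
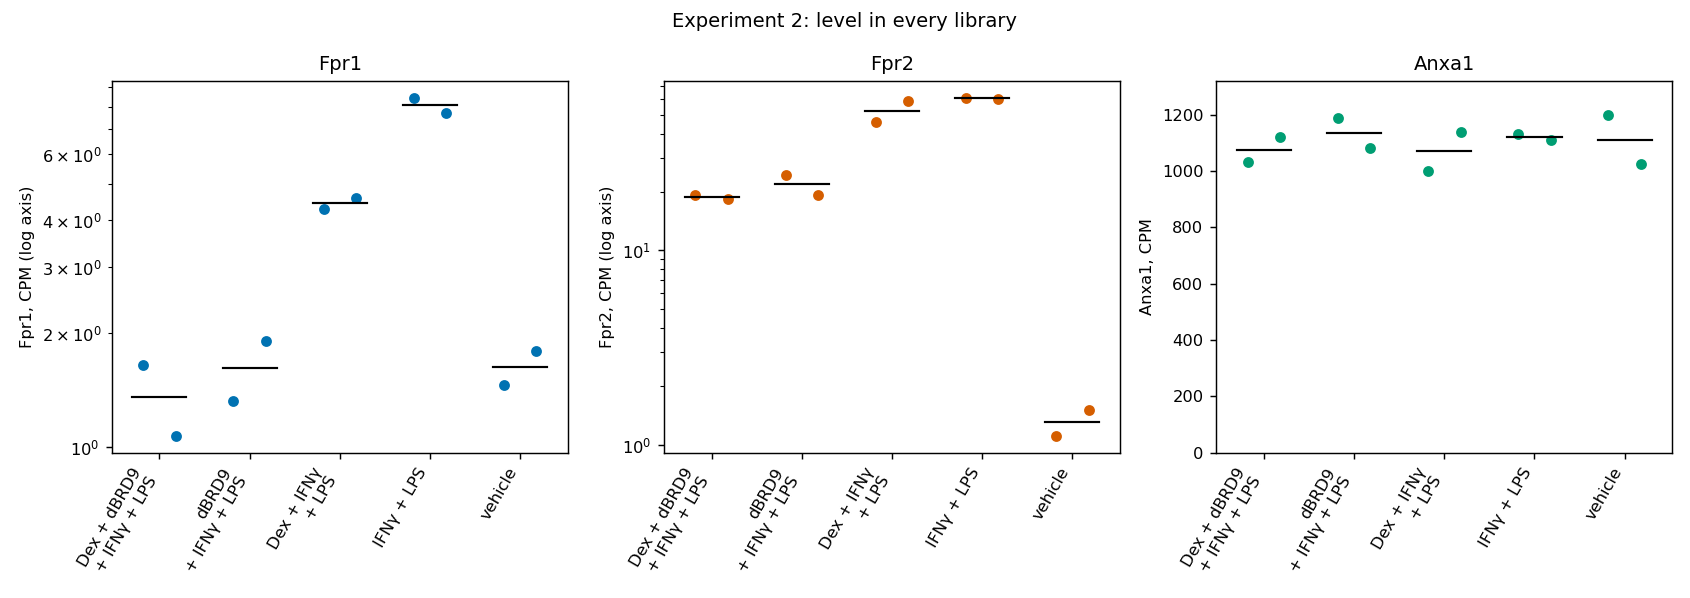
Level of Fpr1, Fpr2 (log axes) and Anxa1 (linear axis from 0) in CPM in each of the 10 libraries of experiment 2; points are libraries and horizontal lines are group means (n = 2). Fpr1 with dBRD9 lay at the level of vehicle cells, Fpr2 with dBRD9 stayed above it, and Anxa1 overlapped between all groups.

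**Figure D3:**
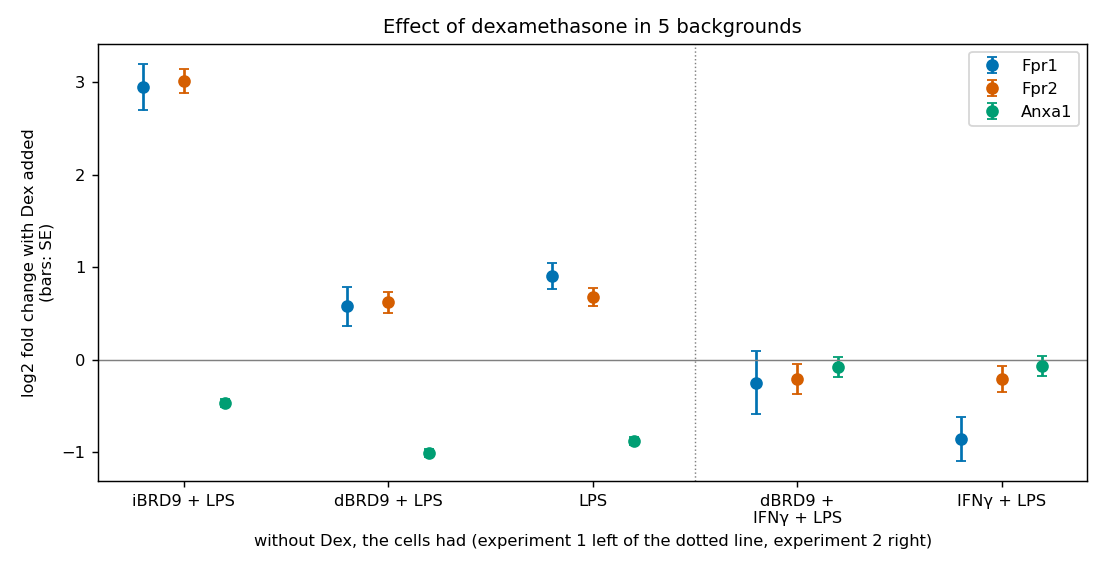
Log2 fold change of Fpr1, Fpr2 and Anxa1 with dexamethasone added (points, bars SE) in 5 settings, 3 from experiment 1 (n = 3 in each group) and 2 from experiment 2 (n = 2). The receptor genes were near 3 with iBRD9 and LPS, between 0.58 and 0.91 in the other settings of experiment 1 and below 0 in experiment 2, where Anxa1 was near 0.

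Across the groups of experiment 1 both receptor genes fell in 1 order of levels. From high to low it ran from dexamethasone and LPS through LPS, dexamethasone with iBRD9 and LPS, dexamethasone with dBRD9 and LPS, dBRD9 and LPS, and iBRD9 and LPS to vehicle, and no neighbours in that order overlapped. Anxa1 ran from LPS through dBRD9 and LPS, vehicle, dexamethasone and LPS, iBRD9 and LPS, and dexamethasone with dBRD9 and LPS to dexamethasone with iBRD9 and LPS. The dexamethasone and LPS group and the iBRD9 and LPS group overlapped for Anxa1, and the other neighbours did not. For most of these neighbours the share of all genes without overlap was not counted, so nothing is read from the lack of overlap. The orders are a description that rests in part on the levels that picked Fpr1. They do not compare the compounds, since the dose of iBRD9 in each library is unknown. In experiment 2 the order for Fpr1 began with IFNγ and LPS, then dexamethasone with IFNγ and LPS, and the other 3 groups overlapped. Per kilobase of exon, LPS cells averaged 15 CPM of Fpr1, 51 CPM of Fpr2 and 1045 CPM of Anxa1, so the ligand's transcript was far above those of its receptors.

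The balance between the receptor genes varied between groups. The ratio of Fpr2 to Fpr1 counts was 5.25 to 5.43 with dexamethasone, iBRD9 and LPS, 5.13 to 6.16 with dBRD9 and LPS, 2.56 to 3.07 with dexamethasone and LPS and 3.18 to 3.62 with LPS alone. It was 3.53 to 9.56 with iBRD9 and LPS, overlapping LPS alone, and 4.73 to 6.46 with dexamethasone, dBRD9 and LPS. In experiment 2 it was 11.7 to 17.4 with dexamethasone and dBRD9, 10.2 to 18.5 with dBRD9, 10.7 to 12.9 with dexamethasone and 7.22 to 7.87 with IFNγ and LPS alone. These ratios rest on the same contrasts that picked Fpr1. Reads of related receptors could be shared. The Fpr1 and Fpr2 transcripts were 75% identical over their aligned bases, with a longest identical run of 50 bases, and Fpr2 and Fpr3 were 88.5% identical, with a run of 94 bases. Fpr3 overlaps Fpr2 and shares 48 exon bases with it, and had 2 counts in each experiment, while Fpr-rs3, Fpr-rs4, Fpr-rs6 and Fpr-rs7 had none. How the authors' counting treated such reads is not given in the sources used here.

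Around the receptor pair, within 250 kb, the annotation holds 19 other genes, 7 of them protein-coding. The nearest gene upstream on the chromosome is Has1, which encodes a hyaluronan synthase, at 17843323 to 17855205, and beyond it lies Spaca6, which encodes a sperm membrane protein, at 17827158 to 17843009. Both were described for their position. Has1 had no count in the 3 vehicle libraries and averaged 7.42 ± 0.0505 CPM in LPS libraries (SD, n = 3), at least 219-fold higher, taking 3 counts over the vehicle group as the floor. It averaged 0.486 CPM with iBRD9 and LPS and 2.25 CPM with dBRD9 and LPS, with log2 fold changes against LPS of -3.93 (SE 0.22, adjusted p = 3.6e-12) and -1.72 (SE 0.18, adjusted p = 4.5e-07) by edgeR, and in both groups all 3 libraries were lower. Of all genes, 30.5% were called lower with iBRD9 and 9.97% with dBRD9. Compound libraries lay all below the LPS libraries for 35.4% and 20.1% of genes. Dexamethasone in LPS cells lowered Has1 to 3.11 CPM, against 7.42 CPM with LPS alone (log2 fold change -1.25, SE 0.17, adjusted p = 2.2e-06, edgeR), where both receptor genes rose. With iBRD9 present Has1 was at 1.62 CPM with dexamethasone, against 0.486 CPM without it (log2 fold change 1.75, SE 0.28, adjusted p = 3e-05, edgeR). With dBRD9 present dexamethasone lowered Has1 to 1.27 CPM, against 2.25 CPM (log2 fold change -0.83, SE 0.22, adjusted p = 0.0036, edgeR). In experiment 2, with 100 Has1 counts in all, dBRD9 did not pass the test without dexamethasone (-1.52, adjusted p = 0.24) or with it (-2.68, adjusted p = 0.064) by edgeR. Spaca6 also rose with LPS, to 48.6 CPM against 4.65 CPM in vehicle cells, but was at 59.4% of its LPS level with iBRD9 and 59.8% with dBRD9. Its log2 fold changes there were both -0.74 (SE 0.17, adjusted p = 0.00058 and 0.0035, edgeR).

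**Figure D4:**
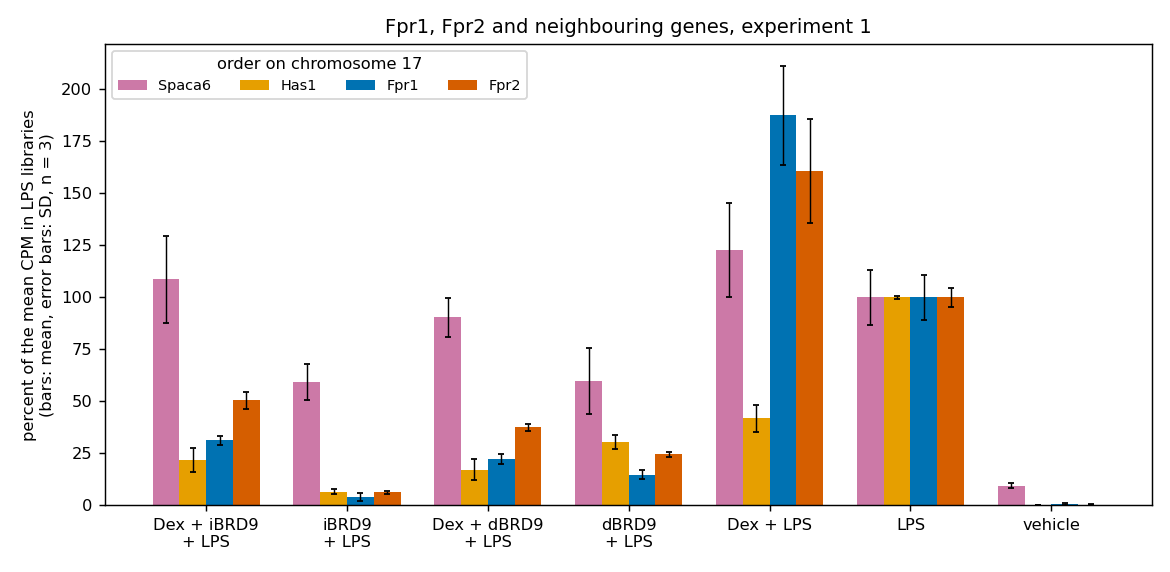
Mean level of Spaca6, Has1, Fpr1 and Fpr2, in percent of each gene's mean CPM in LPS libraries, in the 7 groups of experiment 1 (bars are means, error bars SD, n = 3). With a BRD9 compound and no dexamethasone, Has1, Fpr1 and Fpr2 were at 3.9% to 30.3% of the LPS level and Spaca6 at 59.4% and 59.8%; with dexamethasone and LPS, Has1 was at 41.9% while both receptor genes were above 100%.

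Of the 12 annexin genes listed, 9 were tested. Anxa2, Anxa3, Anxa4 and Anxa5 rose with LPS and fell with dexamethasone, as Anxa1 did. The fall of Anxa3 passed the threshold narrowly (adjusted p = 0.048, edgeR). Among the 8 other than Anxa1, 5 rose and 2 fell in LPS cells against vehicle, where 36.1% of all genes were called higher and 39.3% lower (median log2 fold change 0.46, against -0.05 over all genes). With dexamethasone and LPS against LPS, 1 rose and 5 fell, where 27.9% of all genes were called higher and 27.5% lower (median -0.31, against 0.01). The counts with LPS were 3 higher and 4 lower with library totals alone. With dexamethasone the closest to Anxa1 were Anxa2, which organises membrane and actin, at -0.91 (SE 0.06, adjusted p = 8.3e-12), and Anxa4 at -0.95 (SE 0.056, adjusted p = 1.6e-12) by edgeR. Anxa5, known for binding exposed phosphatidylserine, fell by 0.51 and Anxa11 fell by 0.50 on the log2 scale, and Anxa3 fell by 0.11. Anxa6 rose by 0.72 (SE 0.063, adjusted p = 1.3e-09, edgeR), and Anxa7 and Anxa9 were at 0.00 and -0.06. Anxa8, Anxa10 and Anxa13 had at most 8 counts in either experiment and were not tested.

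The annexins differed from each other in their response to iBRD9. Of the 8 other than Anxa1, 2 were called higher and 5 lower with iBRD9 and LPS against LPS, where 31.4% and 30.5% of genes were called. Anxa2 fell by 0.71 and Anxa4 by 0.74 on the log2 scale, while Anxa5 rose by 0.41 (SE 0.043, adjusted p = 2.3e-08, edgeR). With dBRD9, Anxa9 at 0.43 and Anxa3 at 0.17 were called higher and 0 were called lower by edgeR, where 6.64% and 9.97% of genes were called. In experiment 2, where 32.8% of genes were called higher and 35.6% lower, 7 of the 8 rose and 1 fell with IFNγ and LPS against vehicle, among them Anxa7 by 1.56 (SE 0.1, adjusted p = 1.3e-09, edgeR), where Anxa1 was at 0.01. With library totals alone 2 of the 8 were higher. Dexamethasone with IFNγ and LPS, where 10.7% of genes were called higher and 9.21% lower, gave 2 lower, Anxa2 at -0.37 and Anxa6 at -0.32 (adjusted p = 0.043 and 0.037, edgeR), and 0 on leaving out any 1 library compared.

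**Figure D5:**
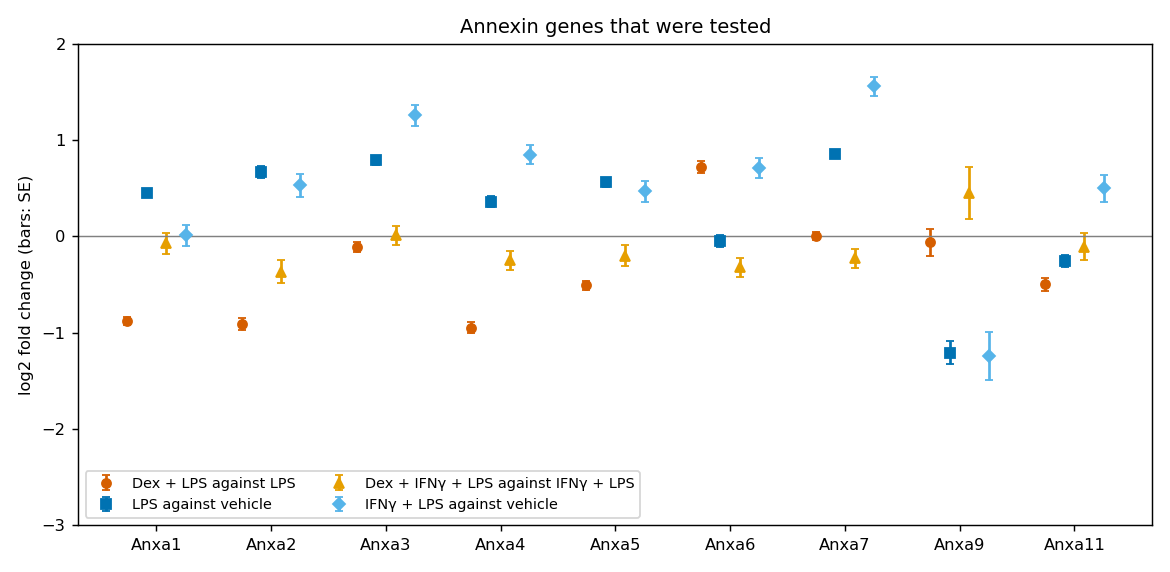
Log2 fold change (points, bars SE) of the 9 annexin genes tested, with dexamethasone and with stimulation, in experiment 1 (n = 3 in each group) and experiment 2 (n = 2). With dexamethasone and LPS, Anxa1, Anxa2 and Anxa4 lay between -0.95 and -0.88 and Anxa6 at 0.72.

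Among 7 other genes of receptor ligands, 5 were tested. Saa3, a serum amyloid A made by macrophages, was at 4101 ± 188 CPM with dexamethasone and LPS and 211 ± 6.99 CPM with LPS (SD, n = 3), a change of 4.28 log2 units (SE 0.084, adjusted p = 5e-21, edgeR). It stood at 120 CPM with iBRD9 and LPS and 64.7 CPM with dBRD9 and LPS, with log2 fold changes against LPS of -0.82 (adjusted p = 2.9e-09) and -1.71 (adjusted p = 3.5e-12) by edgeR. In experiment 2 Saa3 was at 492 CPM with dexamethasone, IFNγ and LPS and at 14.2 CPM with IFNγ and LPS (log2 fold change 5.12, SE 0.18, adjusted p = 2.6e-11, edgeR). App, whose product gives a peptide ligand, was at 691 CPM with dexamethasone and LPS and 981 CPM with LPS and fell by 0.51 on the log2 scale with dexamethasone and LPS. In all, 2 of the 5 rose and 2 fell in that comparison, where 27.9% of all genes were called higher and 27.5% lower.

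Other receptors of chemoattractants and related ligands, 12 tested of 13, did not share 1 pattern. With dexamethasone and LPS against LPS, 5 of the 12 rose and 3 fell, where 27.9% of all genes were called higher and 27.5% lower (median log2 fold change 0.01, against 0.01 over all genes). C5ar1, the receptor of complement C5a, was at 1475 CPM with dexamethasone and LPS and 603 CPM with LPS (log2 fold change 1.29, SE 0.063, adjusted p = 4.8e-14, edgeR), and it rose in experiment 2 as well, by 1.37 (SE 0.098, adjusted p = 5.8e-08, edgeR). Cmklr1, the chemerin receptor, was at 3.02 CPM with iBRD9 and LPS and 66.3 CPM with LPS, a change of -4.46 log2 units (SE 0.13, adjusted p = 6e-18, edgeR). Gpr84, a receptor of medium-chain fatty acids, rose by 7.95 with LPS and fell by 1.01 with dexamethasone and LPS on the log2 scale. C3ar1 and Ccrl2, at 518 and 354 CPM with iBRD9 and LPS and 475 and 313 CPM with LPS, were called higher there, while 6 of the 12 receptors were called lower, where 31.4% and 30.5% of all genes were called.

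Genes downstream of the receptors were called in both directions. Of 32 signalling genes, all tested, 14 rose and 10 fell with dexamethasone and LPS against LPS, and 7 rose and 17 fell with iBRD9 and LPS against LPS (median log2 fold changes 0.08 and -0.26). Over all genes 27.9% were called higher and 27.5% lower with dexamethasone, and 31.4% and 30.5% with iBRD9. Rgs2, a negative regulator of G protein signalling, was at 10.2 CPM with dexamethasone and LPS and 110 CPM with LPS (log2 fold change -3.43, SE 0.12, adjusted p = 1.7e-16, edgeR). Gnai2, a Gi alpha subunit, was at 777 CPM with dexamethasone and LPS and 766 CPM with LPS. Of the 6 NADPH oxidase genes, which serve the oxidative burst, 3 rose and 0 were called lower with dexamethasone and LPS by edgeR (27.9% and 27.5% over all genes), with 1 called lower when dexamethasone and LPS replicate 1 was left out, without both libraries that stood apart, or without the filter on low counts. DESeq2 called 0 lower as well. Ncf1, a cytosolic subunit, was at 1030 CPM with dexamethasone and LPS and 464 CPM with LPS, and Cybb, the catalytic subunit, at 3139 CPM with dexamethasone and LPS and 3153 CPM with LPS.

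Of 7 genes tied to release or phosphorylation of annexin A1, 1 rose and 2 fell with dexamethasone and LPS against LPS, where 27.9% of all genes were called higher and 27.5% lower. Abca1, a transporter linked to annexin A1 export, was at 360 CPM with dexamethasone and LPS and 171 CPM with LPS (log2 fold change 1.07, SE 0.16, adjusted p = 6.4e-06, edgeR). Without dexamethasone and LPS replicate 1, 2 genes were called higher. Pla2g4a, the phospholipase that annexin A1 inhibits, was at 18.1 CPM with dexamethasone and LPS and 43.8 CPM with LPS (log2 fold change -1.27, SE 0.07, adjusted p = 3.9e-13, edgeR). Of the 4 S100 genes whose products bind annexins, S100a10 rose by 0.72 and S100a6 by 0.52 with dexamethasone and LPS, and S100a11, the partner of annexin A1, fell to 157 CPM, against 445 CPM with LPS (adjusted p = 2.6e-12, edgeR). The count of S100 genes that fell there was 1 of 4, where 27.5% of all genes fell, and it was 2 under 8 alternatives, DESeq2, limma voom and leaving out dexamethasone and LPS replicate 1 among them.

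The genes most like each member were found by Pearson's r of log2(CPM + 0.5) over the 21 libraries of experiment 1, which share their groups and treatments, among 8308 genes. Those most like Fpr2 were Gfi1, a transcriptional repressor, at 0.993, Ppp2r5a at 0.988, Stard7 at 0.986, Tnfrsf8 at 0.983 and Rbm7 at 0.979. Over the 10 libraries of experiment 2 their r was 0.776, 0.886, 0.944, 0.947 and 0.936. Gfi1 averaged 44.7 CPM with dexamethasone and LPS, 1.94 CPM with iBRD9 and LPS, 27.3 CPM with LPS and 0.0565 CPM in vehicle cells. Those most like Fpr1 were Tbc1d23 at 0.958, Gfi1 and Fpr2 at 0.953 each, and Ppp2r5a and Pdgfrb at 0.95 each. In experiment 2 their r with Fpr1 was 0.816 for Tbc1d23, 0.869 for Gfi1, 0.64 for Fpr2, 0.337 for Ppp2r5a and 0.785 for Pdgfrb. Those most like Anxa1 were Tal1 at 0.98, Sdc1, Tmem171 and Arhgap6 at 0.979 each and Nedd4l at 0.978, and over experiment 2, where Anxa1 hardly varied, their r lay between -0.217 and 0.408. Anxa1 had an r of 0.0115 with Fpr1 and -0.103 with Fpr2 in experiment 1.

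Some markers of other cell types moved with the receptor genes and some did not. The summed level of 6 monocyte markers was 0.428 to 0.829 CPM with iBRD9 and LPS, 9.62 to 12.3 CPM with dBRD9 and LPS, 52.7 to 60.5 CPM with dexamethasone and LPS, 21.1 to 23.7 CPM with LPS and 29.5 to 33.2 CPM in vehicle cells. With dexamethasone and LPS it was 18.8 to 23.3 CPM when iBRD9 was present and 37.6 to 39.7 CPM when dBRD9 was present. In those 2 groups the sum overlapped or exceeded that with LPS alone, while both receptor genes were below their LPS level. With dexamethasone and LPS against LPS the markers did not move 1 way. Of the 5 tested, 3 rose and 2 fell, Ccr2 at 0.28 CPM against 3.53 CPM with LPS and Cx3cr1 at 1.32 CPM against 14.4 CPM. Of all genes, 27.9% were called higher and 27.5% lower there. In experiment 2 the monocyte sum was 23.5 to 25.4 CPM with dexamethasone and dBRD9, 9.51 to 10.6 CPM with dBRD9, 43.5 to 48.3 CPM with dexamethasone, 21.5 to 23.1 CPM with IFNγ and LPS alone and 11.6 to 13.4 CPM in vehicle cells.

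The sum of 14 neutrophil markers was 464 to 498 CPM with dexamethasone, dBRD9 and LPS, 269 to 273 CPM with dexamethasone, iBRD9 and LPS, 25 to 30.1 CPM with iBRD9 and LPS, 82.6 to 91.2 CPM with dBRD9 and LPS, 346 to 409 CPM with dexamethasone and LPS, 111 to 125 CPM with LPS and 72.4 to 76.7 CPM in vehicle cells. With dexamethasone and LPS against LPS, 2 of the 8 tested rose, Lcn2 at 250 CPM against 27.3 CPM with LPS and Mmp8 at 68.7 CPM against 9.17 CPM. Another 4 fell, Csf3r, Ltf, Ngp and S100a9. Of all genes, 27.9% were called higher and 27.5% lower there. Lcn2 alone made up most of the sum with dexamethasone and LPS. In experiment 2 the neutrophil sum was 166 to 184 CPM with dexamethasone and dBRD9, 191 to 198 CPM with dBRD9, 237 to 242 CPM with dexamethasone, 223 to 245 CPM with IFNγ and LPS alone and 112 to 121 CPM in vehicle cells. Of the 14 neutrophil markers, 8 were high enough to test in experiment 1 and 10 in experiment 2. Among those not tested in experiment 1, Ly6g, Elane, Mpo and Prtn3 were each at or under 0.187 CPM in all 21 libraries. With iBRD9 and LPS against LPS, 5 of 5 monocyte and 8 of 8 neutrophil markers tested were called lower, where 30.5% of all genes were. With dBRD9 and LPS against LPS, 2 of 5 and 3 of 8 were called lower, where 9.97% of all genes were.

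The sum of the 5 stromal markers in experiment 1 was 0.855 to 1.93 CPM with iBRD9 and LPS, 10.7 to 12 CPM with dBRD9 and LPS, 37.8 to 47.4 CPM with dexamethasone and LPS, 29.8 to 32.9 CPM with LPS and 0.378 to 0.546 CPM in vehicle cells. With dexamethasone and LPS it was 15.7 to 17.2 CPM when iBRD9 was present and 14.8 to 17.1 CPM when dBRD9 was present. It was almost wholly Pdgfrb, the other 4 being too low to test. In experiment 2, where Col1a1 led, it was 33.1 to 38.7 CPM with dexamethasone and dBRD9, 49.7 to 50 CPM with dBRD9, 39.9 to 47 CPM with dexamethasone, 61.5 to 68.3 CPM with IFNγ and LPS alone and 50.3 to 50.8 CPM in vehicle cells. Dendritic cell markers summed to 1.22 to 1.53 CPM with iBRD9 and LPS, 6.43 to 8.85 CPM with dBRD9 and LPS and 6.87 to 7.8 CPM with LPS. The part of such cells in the receptor levels was not tested.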

How the data were processed

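RNA was sequenced from 31 macrophage libraries, and the authors deposited a table of raw counts per gene for each experiment, with whole numbers that are not normalized. The submitters' processing notes name fastp, STAR and DESeq2 and the build mm10; no role, version or annotation is stated there. Gene symbols and positions came from GENCODE vM21 (GRCm38).

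Here each experiment was fitted on its own with edgeR 4.0.16 (R 4.3.3): TMM factors, a filter by filterByExpr (minimum count 10, total 15), 1 coefficient per group, quasi-likelihood F tests and Benjamini-Hochberg adjustment over all genes, called at an adjusted p under 0.05. Alternatives used DESeq2 1.42.0, limma 3.58.1, other scaling, filters, sample sets and a replicate block. The common biological coefficient of variation was 6.79% and 10.6%, with 14 and 5 residual degrees of freedom. The fits were tested on simulated data.

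Among comparisons with 3 pairs, every pair of same-numbered libraries correlated over 0.1 in 1, the dexamethasone groups with and without dBRD9 in experiment 1 (0.155 to 0.468), a pairing read from the data. In experiment 2, with 2 pairs, correlations ran from -0.118 to 0.146, the highest for IFNγ and LPS against vehicle. The members and lists were chosen with earlier results of these data known. Beside the members, named genes were all formyl peptide receptors and annexins, up to 4 called genes per list with the largest change and at least 10 CPM, the 2 most abundant per list, and the 5 genes most like each member. Has1 and Spaca6 were taken by position. Not every gene meeting the rule is printed. The values of 1 monocyte marker are not reported here.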

Additional observations from a re-analysis of the deposited data

Results flagged for a closer look

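The effect of dexamethasone differed between cells with and without iBRD9 by the test of the difference itself, by 2.33 on the log2 scale for Fpr2 and 0.42 for Anxa1 (adjusted p = 2.1e-10 and 2.7e-05, edgeR). The dose of iBRD9 in each library is unknown, so a difference in dose cannot be told apart from dexamethasone here. Fpr1 was higher with dexamethasone in every LPS library of experiment 1 (0.91) and lower in every IFNγ and LPS library of experiment 2 (-0.86), and Fpr2 was at 0.68 in experiment 1 and -0.21 in experiment 2. With dBRD9 present, Fpr2 was at 0.62 in experiment 1 and -0.21 in experiment 2. Neither value of -0.21 passed the test, and the differences between experiments were not tested.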

How the results depend on the processing

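The 3 genes were refitted in 16 comparisons under the alternatives. Of the values, 714 counted as the same, 23 moved, 8 lost a call and 2 changed direction with a call in either fit. A tested value counted as the same if it kept its side of the threshold, also where its sign changed without a call in either fit. Fpr1 with dexamethasone and dBRD9 against dBRD9 in experiment 2, for example, ran from -0.58 to 0.04. A value without a test counted as the same if it moved by less than the spread between replicates. With library totals alone, Anxa1 was at -0.06 with LPS against vehicle and -0.64 with IFNγ and LPS against vehicle, and for iBRD9, dBRD9, iBRD9 with dexamethasone and dBRD9 with dexamethasone at -0.82, -0.15, -0.46 and -0.27; Fpr2 with iBRD9 was at -3.87. Without both libraries that stood apart, Fpr1 and Anxa1 with dBRD9 and dexamethasone were at -2.91 and -0.28, and the difference in the effect of dexamethasone with dBRD9 was -0.16 for Fpr1. With limma voom Fpr1 was at 0.57 with dexamethasone and dBRD9 against dBRD9. The scaling is the cause of the first set by construction; the cause of the others was not tested.

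Leaving out 1 library at a time gave, for Fpr1 in experiment 1, 0.48 to 0.68 for dexamethasone with dBRD9, -5.06 to -4.33 for iBRD9 and 1.74 to 2.48 for the difference in the effect of dexamethasone with iBRD9. In experiment 2, where an arm is then a single library assumed to vary like the other groups, Fpr1 ran from -0.93 to -0.79 for dexamethasone, -2.61 to -2.08 for dBRD9, -2.04 to -1.42 for dBRD9 with dexamethasone and 0.28 to 0.90 for the difference between them. Fpr2 ran from -1.65 to -1.31 for dBRD9 and -1.65 to -1.28 for dBRD9 with dexamethasone, and Anxa1 from -0.06 to 0.09 for dBRD9.

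With the replicate number as a block no call of the 3 genes changed (Fpr1 with dexamethasone and LPS was at 0.91, and with dexamethasone and dBRD9 at 0.58), while the 2 annexins called lower with dexamethasone in experiment 2 became 0; crossing the numbers in experiment 2, an alternative chosen after seeing the data, gave 1609 genes higher and 1454 lower with dexamethasone, against 1429 and 1226. Pair correlations in the other comparisons of experiment 1 were -0.0953 to 0.107. Called genes numbered 2103 for dBRD9 and LPS against LPS, against 3465 without the libraries that stood apart and 3305 with only the compared groups. For iBRD9 and for dBRD9 with dexamethasone they numbered 4390 and 1999, against 2283 and 579 with only the compared groups. The difference in the effect of dexamethasone with dBRD9 in experiment 1 was called for 429 genes, and for 947 without the libraries that stood apart, 890 without replicate 1 of dexamethasone and LPS, and 211 with only the compared groups. In experiment 2, dBRD9 gave 243 calls, with 390 unfiltered, 410 with only the compared groups and 65 to 90 without 1 library; with dexamethasone it gave 186, with 285 by DESeq2, 515 unfiltered, 511 with only the compared groups and as few as 33 without 1 library. The difference there was called for 1 gene by edgeR and 31 by DESeq2, with 144 unfiltered, 38 with only the compared groups and 0 to 9 on leaving out a library that moved it; 1222 genes had an unadjusted p under 0.05. Dexamethasone in experiment 2 gave 2655 calls, and 1530 without IFNγ and LPS replicate 2; with dBRD9 it gave 3775, and 1993 without replicate 2 of the group with both. With library totals alone, genes called higher and lower were 2421 and 8125 for LPS (4567 and 4971 with TMM), 2632 and 7819 for IFNγ and LPS (4371 and 4745), 4364 and 2947 for dexamethasone and LPS (3531 and 3485), 5193 and 3032 for iBRD9 (3979 and 3865), 1402 and 1039 for dBRD9 (841 and 1262), 3089 and 1656 for iBRD9 with dexamethasone (2110 and 2280), 1598 and 843 for dBRD9 with dexamethasone (824 and 1175), 4621 and 2773 for dexamethasone with dBRD9 (3680 and 3384), 1703 and 944 for dexamethasone in experiment 2 (1429 and 1226) and 2613 and 1515 for dexamethasone with dBRD9 there (1858 and 1917). Fpr1 in vehicle cells rests on 11 counts, which limits its fold change.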
